A study of Homo sapiens with 12 samples.

Results

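The interaction of azacytidine and Trichostatin A (TSA) was measured in SW48 cells, a human colorectal cancer line that the labels call microsatellite-instable. It compares the change that azacytidine made in cells that also received TSA with the change it made in cells that did not. All 12 of 12 arrays entered this comparison, and 9484 of the 18665 named genes on the array had enough signal to be tested. The 4 groups had 3 arrays each. In the combined group, cells received 1 µM azacytidine for 5 days and then 0.5 µM TSA for 2 days. The azacytidine group received 1 µM for 5 days, the TSA group 0.5 µM for 2 days, and the control group neither drug. All groups are the same cell line, and the medium was renewed daily. The labels do not say whether the replicates were separate cultures, so p-values measure the spread between these arrays, which may be technical. Drug times differ between groups, so time in culture, if it differed too, cannot be told apart from treatment.

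Azacytidine is a cytidine analog that is built into nucleic acids and traps DNA methyltransferases, so that methylation is lost as cells divide. TSA inhibits histone deacetylases, which remove acetyl groups from histones and are recruited to methylated promoters by methyl-binding proteins. In cancer cells, inhibitors of deacetylation are known to do little to densely methylated silent genes by themselves and to raise them further once methylation has been reduced.

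The interaction was calculated on log2 normalized signal as (combined minus TSA) minus (azacytidine minus control). It equals the distance of the combined group from the level expected if the log2 changes of the single drugs added up. A value of 1 means that the combined level was 2-fold above that expectation, and a value of −1 that it was 2-fold below it. An additive difference between the chips cancels in this contrast, since the combined and azacytidine groups were split over the 2 chips alike, as were the TSA and control groups.

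Between 11742 and 13647 probes were detected per array, and correlations between arrays of a group were 0.9909 to 0.9962 across genes, which are not independent replicates. Of 12 colorectal epithelial markers, 7 were detected on all arrays, while KRT20, VIL1, LGALS4 and CEACAM5 were detected on none. Of 8 fibroblast markers 4 were detected on no array, and so were 6 of 7 leukocyte and 4 of 6 endothelial markers. The summed epithelial signal was 30030 to 35200 on the combined arrays, 28000 to 30920 on the azacytidine arrays, 38060 to 46480 on the TSA arrays and 38760 to 43170 on the control arrays. The summed fibroblast signal was 648 to 717 on the combined, 429 to 480 on the azacytidine, 362 to 382 on the TSA and 354 to 395 on the control arrays. The summed leukocyte signal was 461 to 529 on the combined, 395 to 416 on the azacytidine, 266 to 289 on the TSA and 280 to 297 on the control arrays. THY1 and CD14 were the only members of these 2 lists detected on all arrays of the combined and azacytidine groups and on none of the others. The summed endothelial signal was 1064 to 1222 on the combined, 401 to 458 on the azacytidine, 239 to 267 on the TSA and 227 to 248 on the control arrays. VWF was the endothelial marker that differed, since the other 5 were detected on no combined array. The part of other cell types in the results was not tested.

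The promoters of 5 genes whose values follow are shown first, from RefSeq with build GRCh38.p14, each 5′ to 3′ on the gene's strand. They are shown because DNA methylation in human cells lies mostly at CG pairs, and because 6 of 9 tested metallothionein list members had a higher interaction. For VGF at chr7:101165520-101165819 (- strand), SYT11 at chr1:155859317-155859616 (+ strand) and TGFBI at chr5:136028738-136029037 (+ strand), capitals mark CG.
VGF: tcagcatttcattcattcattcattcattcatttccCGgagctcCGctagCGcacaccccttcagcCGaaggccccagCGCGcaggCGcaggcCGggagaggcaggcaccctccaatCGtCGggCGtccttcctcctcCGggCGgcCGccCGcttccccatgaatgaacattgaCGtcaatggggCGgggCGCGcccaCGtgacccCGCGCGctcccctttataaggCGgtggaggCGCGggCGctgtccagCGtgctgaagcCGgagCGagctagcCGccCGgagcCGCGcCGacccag
SYT11: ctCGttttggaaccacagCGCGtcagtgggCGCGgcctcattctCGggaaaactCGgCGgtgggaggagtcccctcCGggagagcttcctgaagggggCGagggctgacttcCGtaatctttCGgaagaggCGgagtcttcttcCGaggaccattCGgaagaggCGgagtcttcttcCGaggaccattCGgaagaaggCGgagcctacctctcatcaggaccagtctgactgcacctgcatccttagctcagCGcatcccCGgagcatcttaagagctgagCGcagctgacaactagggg
TGFBI: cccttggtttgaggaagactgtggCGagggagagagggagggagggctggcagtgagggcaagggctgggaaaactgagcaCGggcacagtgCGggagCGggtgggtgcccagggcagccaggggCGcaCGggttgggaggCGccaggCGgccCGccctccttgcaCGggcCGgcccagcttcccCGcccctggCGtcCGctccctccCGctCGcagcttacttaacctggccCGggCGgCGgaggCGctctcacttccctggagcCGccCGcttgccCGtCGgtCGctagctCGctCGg
For MT2A at chr16:56608334-56608633 (+ strand) and MT1H at chr16:56669564-56669863 (+ strand), capitals mark the metal response core TGCACNC or TGCGCNC on either strand.
MT2A: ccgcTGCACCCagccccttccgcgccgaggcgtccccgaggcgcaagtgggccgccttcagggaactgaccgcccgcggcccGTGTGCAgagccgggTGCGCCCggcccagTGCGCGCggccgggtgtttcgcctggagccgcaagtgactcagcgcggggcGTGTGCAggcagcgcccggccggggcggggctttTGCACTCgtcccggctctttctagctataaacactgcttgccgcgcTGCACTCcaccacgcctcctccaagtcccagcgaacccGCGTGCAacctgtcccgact
MT1H: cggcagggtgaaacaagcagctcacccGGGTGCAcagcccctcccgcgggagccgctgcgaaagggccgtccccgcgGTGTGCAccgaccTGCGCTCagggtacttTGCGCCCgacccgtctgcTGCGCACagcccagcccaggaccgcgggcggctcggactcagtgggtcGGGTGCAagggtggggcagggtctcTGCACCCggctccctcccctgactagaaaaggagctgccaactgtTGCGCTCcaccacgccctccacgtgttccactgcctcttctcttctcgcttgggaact
VGF and SYT11 hold 35 and 22 CG pairs, and TGFBI, which moved the other way, holds 27. The median was 24 over the 872 promoters matched for genes with a higher interaction, 27 over the 878 for genes with a lower one and 26 over all 7831 matched tested genes. Over the 216 promoters matched for genes at least 2-fold higher the median was 18. The metal response core was found 8 times each in MT2A and MT1H, 4 times in MT1X, 2 times in SLC30A1 and 0 times in MTF1. These are the members of the metallothionein list with a matched promoter, and MT3 had none. At least 1 was found in 29.3% of all 27305 promoters of this length, in 39.4% of those of tested genes, and in 37.7% and 37.5% of those of genes with a higher and a lower interaction. At least 3 were found in 2.27% of all promoters and in 3.42% of those of tested genes. For genes with a higher and a lower interaction these shares were 2.98% and 2.73%. For genes at least 2-fold higher the share was 5.09% (11 of 216), and for those at least 2-fold lower it was 0% (0 of 40). These matches describe letters in the window and show no binding and no methylation state.

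The combined level departed from the added single-drug changes for 2149 genes, 22.7% of those tested (limma, Benjamini-Hochberg adjusted p under 0.05). It was higher for 1096 genes (11.6%) and lower for 1053 (11.1%). At least 2-fold higher were 301 genes (3.17%) and at least 2-fold lower 48 (0.506%), while 47 genes were at least 4-fold higher and none was 4-fold lower. The 2-fold counts depend on the processing: they were 196 higher and 156 lower with median scaling, 121 and 6 without background correction and 80 and 5 in the authors' processed values. Among the 7480 genes detected on all 12 arrays, 700 (9.36%) were higher and 840 (11.2%) lower, with 103 and 19 past 2-fold. Same-numbered arrays gave the fitted sign in all 3 differences for 2138 of the 2149 genes. The fitted value is the mean of these differences and the genes were called on the same arrays, so this count is only a description. The share of calls that were higher was 51% here, 33.4% with arrays scaled to equal medians and 65.1% with cyclic loess. The median interaction over all tested genes was −0.04 here and −0.28 with median scaling, so small interactions are read relative to that shift.

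**Figure D1:**
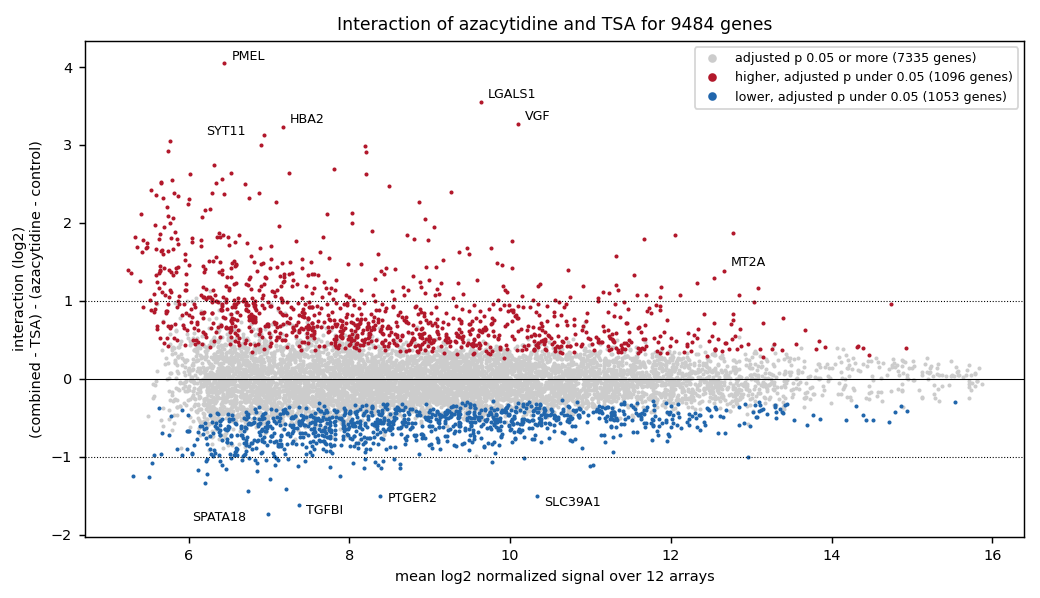
Interaction (log2) against mean log2 normalized signal over 12 arrays, 1 point per gene, with dotted lines at 2-fold. The upward tail holds LGALS1 at 3.55 and PMEL at a fitted 4.05, and the downward tail ends at −1.74 for SPATA18. With undetected values at the lowest detected signal PMEL is at 2.90 and SPATA18 at −1.57.

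The interaction can also be read as the TSA change after azacytidine minus the TSA change without it. With the combined treatment against azacytidine, 1485 genes were higher (15.7%) and 1836 lower (19.4%), 35% in all. At least 2-fold higher were 264 (2.78%) and at least 2-fold lower 35 (0.369%). With TSA alone against control, 12 genes were higher (0.127%) and 2 lower (0.0211%), 0.148% in all, and 3 of the higher ones reached 2-fold (0.0316%). The TSA counts rest on few arrays: without TSA replicate 2 there were 0 higher and 0 lower. The median standard error of an interaction was 0.147, and its 95% interval reached 0.32 to either side at the median. For 8228 genes the whole interval lay within 2-fold of no interaction.

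Several genes with a large interaction were raised by azacytidine and were higher still with the combined treatment. LGALS1, which encodes the secreted glycan-binding protein galectin-1, had log2 signals of 13.18, 13.26 and 13.19 on combined arrays, 9.74, 9.92 and 9.96 on azacytidine arrays, 7.72, 7.58 and 7.56 on TSA arrays and 7.76, 7.84 and 7.90 on control arrays. Every combined array was above every azacytidine array, which in turn were above all others, and the TSA arrays lay just below the control arrays. Its interaction was 3.55 ± 0.11 (SE, n = 3 per group, limma adjusted p = 1.43e-09), from an expected combined level of 9.66. VGF, a secreted neuroendocrine peptide precursor, had 13.06, 13.04 and 12.99 in combined, 9.68, 9.62 and 9.57 in azacytidine, 8.94, 8.92 and 8.96 in TSA and 8.94, 8.80 and 8.66 in control. The combined arrays stood apart, and the interaction was 3.27 ± 0.11 (SE, adjusted p = 1.99e-09).

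Other genes of this kind had no detected signal without azacytidine. HBA2, an alpha globin gene, had 11.11, 10.91 and 10.73 in combined, 8.02, 7.58 and 7.43 in azacytidine, 5.02, 5.03 and 5.08 in TSA and 5.11, 5.05 and 4.95 in control. Combined arrays were at least 18.7-fold above control and azacytidine arrays at least 1.99-fold, with no overlap between them, and the interaction was 3.23 ± 0.19 (SE). HBA1 had an interaction of 2.27, but the sequences of HBA1 and HBA2 are nearly identical and their probes cannot be told apart with certainty. SYT11, a synaptotagmin of membrane traffic, had 9.98, 9.78 and 9.81 in combined, 6.91, 6.73 and 6.92 in azacytidine, 5.48, 5.26 and 5.65 in TSA and 5.94, 5.53 and 5.30 in control. It was detected in all combined and azacytidine arrays and in no other, and its interaction was 3.12 ± 0.21 (SE, adjusted p = 6.01e-07). CCK, the gut hormone cholecystokinin, and NNAT, an imprinted neuronal gene, had interactions of 3.00 and 2.64. VWF, the endothelial von Willebrand factor, had 1.96.

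**Figure D2:**
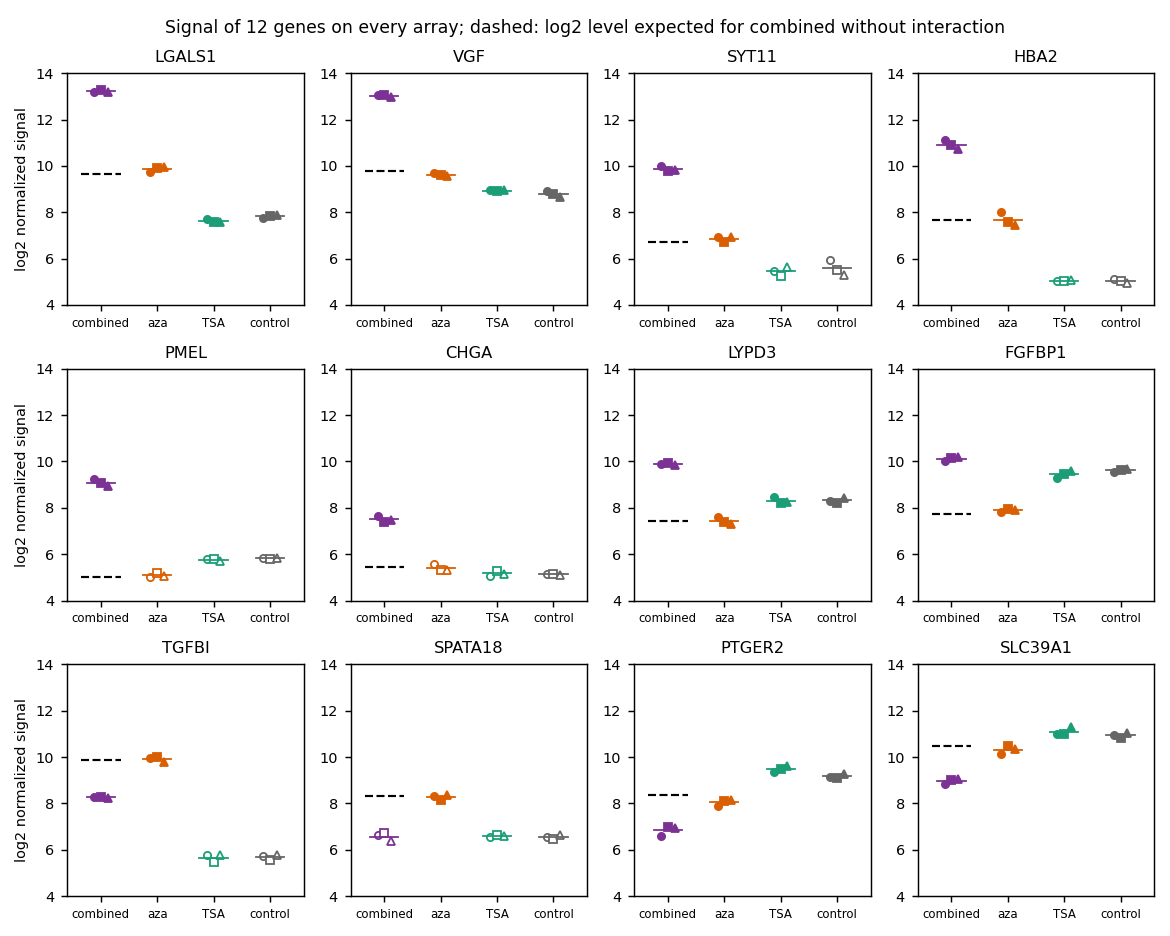
Log2 normalized signal of 12 genes on each array, by group (circle, square and triangle are replicates 1, 2 and 3, short lines are means, filled symbols mark groups detected on all 3 arrays). The dashed line is the combined level expected without interaction: LGALS1 to FGFBP1 lie above it and TGFBI to SLC39A1 below it.

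For 93 genes detection was complete in the combined group and absent from all arrays of the other 3 groups, and 87 of them had a higher interaction, none a lower one. The rule for detection and the interaction share these arrays, so the count is a description. PMEL, a melanosome structural protein, had 9.23, 9.06 and 8.95 in combined, 5.02, 5.20 and 5.06 in azacytidine, 5.78, 5.79 and 5.72 in TSA and 5.84, 5.81 and 5.83 in control. Only the combined arrays were above background, at least 6.58-fold above azacytidine. The fitted interaction of 4.05 ± 0.12 (SE, adjusted p = 7.7e-10) was 2.90 when undetected values were raised to the lowest detected signal and 1.72 in the authors' processed values. MBD3L5 and MBD3L3, near-identical relatives of a methyl-CpG-binding domain protein whose probes may share transcripts, had 3.05 and 2.93, or 2.17 and 2.01 with that floor. CRYM, a thyroid hormone binding protein, was at least 3.24-fold above azacytidine, TMSB15A, a thymosin that binds actin, at least 2.68-fold and CHGA, the neuroendocrine granule protein chromogranin A, at least 2.21-fold.

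Another pattern was a lower level with azacytidine alone that the combined treatment exceeded. LYPD3, a glycosylphosphatidylinositol-anchored surface protein of epithelia, had 9.90, 9.92 and 9.86 in combined, 7.59, 7.40 and 7.30 in azacytidine, 8.49, 8.20 and 8.26 in TSA and 8.30, 8.22 and 8.44 in control. The azacytidine arrays were the lowest and the combined arrays the highest, with no overlap, and the interaction was 2.47 ± 0.14 (SE). FGFBP1, a carrier of fibroblast growth factors, had 10.01, 10.15 and 10.19 in combined, 7.83, 7.94 and 7.89 in azacytidine, 9.29, 9.48 and 9.58 in TSA and 9.53, 9.63 and 9.69 in control. The order was the same, and its interaction was 2.40 ± 0.12 (SE, adjusted p = 7.58e-08). CGN, the tight junction protein cingulin, and SFN, the epithelial 14-3-3 sigma protein, had interactions of 1.78 and 1.30. BHLHE40, a hypoxia-induced repressor, and ASNS, asparagine synthetase, had 1.19 and 1.16, but combined minus TSA was −0.89 and −1.43, so both stayed below the TSA level. ASNS was not past the threshold on the linear scale (adjusted p = 0.0721).

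Among departures below the expected level, SPATA18, a p53 target that acts in mitochondrial quality control, had 6.63, 6.71 and 6.37 in combined, 8.30, 8.15 and 8.36 in azacytidine, 6.53, 6.62 and 6.59 in TSA and 6.54, 6.48 and 6.62 in control. Azacytidine arrays were high, and 2 combined arrays lay just above and 1 just below all TSA and control arrays. The control signals were below the lowest detected signal of their arrays (6.65 to 6.73), so this order lies near background. The interaction was −1.74 ± 0.13 (SE, adjusted p = 2.45e-06). It was −1.57 with undetected values at the lowest detected signal, −1.07 without background correction and −0.79 in the authors' processed values. TGFBI, an extracellular matrix protein induced by TGF-beta, had 8.26, 8.29 and 8.23 in combined, 9.94, 9.99 and 9.78 in azacytidine, 5.75, 5.45 and 5.77 in TSA and 5.73, 5.56 and 5.77 in control. The combined arrays were below the azacytidine arrays and above the others, and the interaction was −1.62 ± 0.14 (SE). TGFBI was not detected in TSA or control. Its interaction was −1.46 with undetected values at the lowest detected signal and −1.19 in the authors' processed values.

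PTGER2, the prostaglandin E2 receptor EP2, had 6.61, 6.97 and 6.94 in combined, 7.87, 8.12 and 8.13 in azacytidine, 9.35, 9.48 and 9.62 in TSA and 9.15, 9.11 and 9.27 in control. Both groups with azacytidine were low and the combined group was lowest, with an interaction of −1.51 ± 0.16 (SE). SLC39A1, the zinc importer ZIP1, had 8.84, 9.03 and 9.05 in combined, 10.15, 10.46 and 10.36 in azacytidine, 10.99 to 11.27 in TSA and 10.97, 10.82 and 11.02 in control. The order of the groups was the same, and the interaction was −1.50 ± 0.15 (SE, adjusted p = 2.54e-05). ZKSCAN1, a zinc finger gene, and BAX, the pro-apoptotic BCL2 family member, differ from these in that TSA alone was higher than control. ZKSCAN1 was not detected in control, so its TSA level was at least 1.71-fold higher (adjusted p = 0.017), and BAX was higher by 0.80 (adjusted p = 0.013). Their interactions were −1.41 (−1.08 with undetected values at the lowest detected signal) and −0.87, and the combined level differed little from azacytidine (−0.30 and −0.08). Without TSA replicate 2 no gene was past the threshold for TSA against control, so both TSA calls depend on that array. The embryonic globin HBE1 (−1.26), ACYP2 (−1.44) and SLC25A36 (−1.33) lost the call when undetected values were raised to the lowest detected signal, and STAB1 (−1.25) then turned to 0.027.

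**Figure D3:**
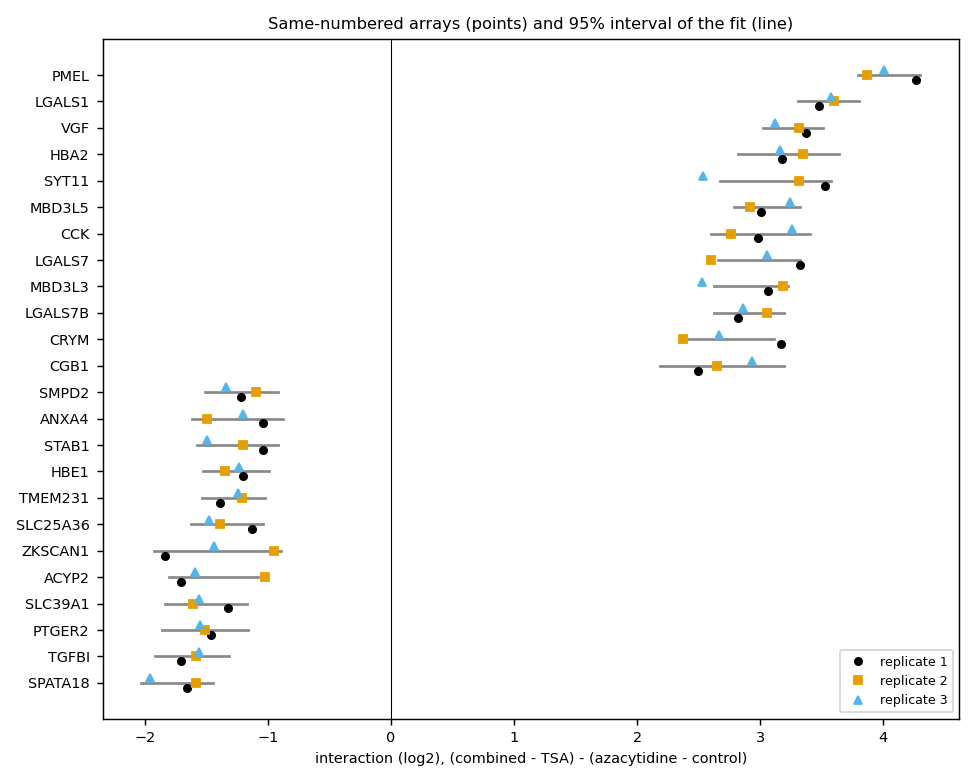
Interaction (log2) of the 12 genes highest and the 12 lowest by the fit, with points from same-numbered arrays and lines for the 95% interval of the fit. The rule that chose the genes required the same sign in all 3 points, so that the points of a gene lie on 1 side of 0 by choice and show only their spread.

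Gene lists are read against the shares over all genes, 11.6% higher and 11.1% lower, and the all-gene median of −0.04. With median scaling only 321 of the 9484 tested genes were higher and 641 lower, with an all-gene median of −0.28. List counts with that scaling are read against those numbers. The lists were chosen with earlier results of these data known, so a share above that of all genes is only a description. Of 47 tested genes known to be induced by deacetylase inhibitors, 25 were higher and 2 lower, with a median of 0.49, against 12 higher and 2 lower with median scaling. SYT11, CRYM and ALPG, a germ cell alkaline phosphatase (2.56), were the largest. Over the 47 genes the median of TSA alone minus control was −0.07, and that of combined minus azacytidine was 0.45. In the metallothionein list, which also holds regulators of zinc, 6 of 9 were higher and none lower, with a median of 1.14 and called values from 1.03 to 1.54. Metallothioneins are small cysteine-rich proteins that bind zinc and copper. MT2A had 13.41, 13.33 and 13.07 in combined, 11.99, 12.11 and 12.06 in azacytidine, 12.62, 12.51 and 12.59 in TSA and 12.83, 12.75 and 12.66 in control. The combined arrays were highest and the azacytidine arrays lowest, with an interaction of 1.38 ± 0.13 (SE). MT3 had 1.54 and MT1H 1.19, and near-identical members may share transcripts. With azacytidine alone these genes differed: MT3 was at least 3.62-fold above control, while MT2A and MT1H changed by −0.69 and −0.62.

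Of 30 keratin and junction genes 14 were higher and none lower (median 0.42), against 3 higher with median scaling. CGN and SFN were 2 of them, and KRT19, a simple keratin, had 1.05, which was not past the threshold with median scaling. Of 24 S100, annexin and galectin genes 12 were higher and 2 lower (median 0.43), against 7 and 2 with median scaling. LGALS7 and LGALS7B, near-identical galectin-7 genes, had 2.99 and 2.91, while ANXA4 had −1.25. Of 26 mesenchymal genes 11 were higher and 4 lower (median 0.32), against 6 and 2 with median scaling, with LGALS1 and PLAU, the urokinase protease (1.54), among the higher ones and TGFBI among the lower. Of 29 neuronal and neuroendocrine genes 10 were higher and none lower (median 0.26), against 7 and 0 with median scaling. VGF, SYT11 and NNAT had the largest values. Of 14 intestinal differentiation genes 7 were higher and 1 lower (median 0.40), against 3 and 0 with median scaling, and the median was −0.08 over the 8 detected on all arrays.

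**Figure D4:**
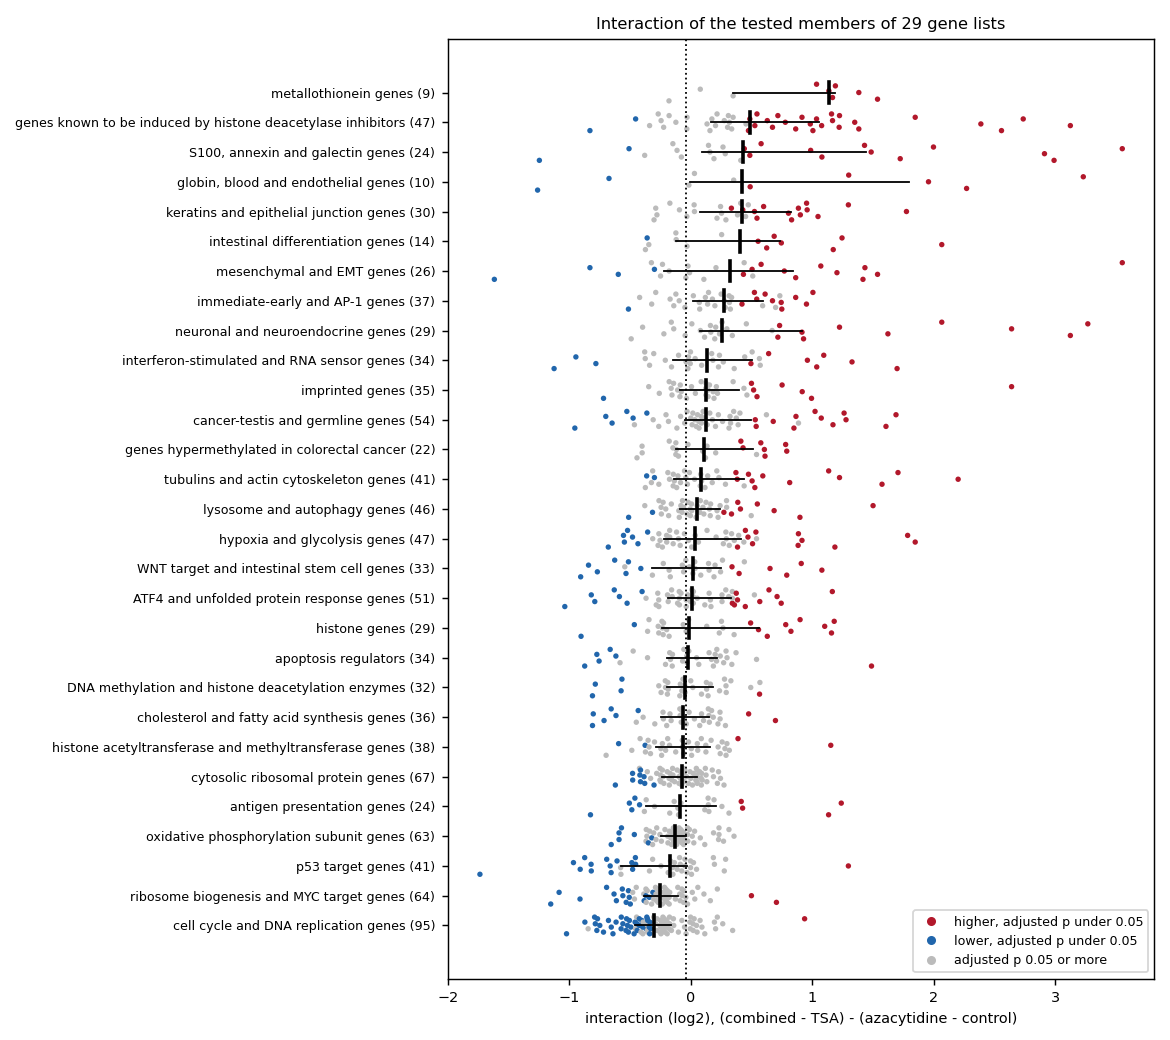
Interaction (log2) of the tested members of 29 gene lists, with number tested in brackets; thick ticks are medians, lines the quartile range and the dotted line the median of all genes. Metallothionein genes have the highest median (1.14) and cell cycle genes the lowest (−0.31).

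Of 22 tested genes hypermethylated in colorectal cancer 7 were higher and none lower (median 0.11), against 0 higher with median scaling. DKK1, a secreted WNT antagonist, NDRG4 and RUNX3, a transcription factor, had 0.79, 0.78 and 0.61, and none of the 3 was past the threshold with median scaling. Of 54 cancer-testis and germline genes 12 were higher and 6 lower (median 0.12), against 8 and 3 with median scaling, with PAGE4 at 1.61. DPPA4, a pluripotency gene, was detected only on combined arrays, at least 1.23-fold above azacytidine, and its fitted 1.69 was 0.48 with undetected values at the lowest detected signal. Over the 6 members detected on all arrays, none was higher and 1 lower (median −0.01). Of 35 imprinted genes 7 were higher and 1 lower (median 0.13), against 2 and 1 with median scaling. MEG3, a maternally expressed long RNA, had 13.07, 13.10 and 13.11 in combined, 11.95 to 12.07 in azacytidine, 5.04, 5.21 and 5.27 in TSA and 4.94, 5.00 and 5.07 in control. It was detected only in the groups with azacytidine, and its interaction was 0.92 ± 0.11 (SE). Of 34 interferon-stimulated genes 7 were higher and 3 lower (median 0.13), against 3 and 3 with median scaling. Over the 23 detected on all arrays 3 were higher and 3 lower (median −0.0030). The list held GBP2 and IFI6 at 1.70 and 1.33 and IFITM3, an antiviral membrane protein, at −1.13. With median scaling the medians of these 4 lists fell below 0, to between −0.14 and −0.04, against −0.28 over all genes.

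Of 95 cell cycle and replication genes 37 were lower and 1 higher (median −0.31), the lower interactions running from −0.33 to −1.02. Lower were 20 with median scaling and 24 with cyclic loess. TYMS, thymidylate synthase, had 9.38, 9.77 and 9.77 in combined, 10.36, 10.58 and 10.75 in azacytidine, 10.11, 10.21 and 10.57 in TSA and 10.15, 10.04 and 10.40 in control. The combined arrays were the lowest and the other groups overlapped, and the interaction was −1.02 ± 0.22 (SE, adjusted p = 0.00478). CCNB1, the mitotic cyclin B1, had −0.87, and CDC25B, a mitotic phosphatase, was the member that was higher (0.94), though not with median scaling. Of 64 ribosome biogenesis and MYC target genes 16 were lower and 2 higher (median −0.25), against 12 and 0 with median scaling, with TSR1, which matures the small ribosomal subunit, at −1.08. Of 41 p53 targets 14 were lower and 1 higher (median −0.17). SPATA18 and ASCC3, a helicase (−0.97), were among the lower ones, and SFN was the higher one.

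Immediate-early and AP-1 genes had 10 of 37 higher and 1 lower (median 0.28), but 0 higher with median scaling. The list median stood 0.31 above the all-gene median here and 0.27 above it with median scaling. Of 29 histone genes 9 were higher and 2 lower (median −0.02), against 3 and 1 with median scaling, and the linker histone H1-2 had 1.18. Of 41 tubulin and actin genes 12 were higher and 2 lower (median 0.08), against 5 and 0 with median scaling, with TUBB2B, a neuronal beta tubulin, at 1.57. Globin, blood and endothelial genes had 5 of 10 higher and 2 lower (median 0.42), against 4 and 1 with median scaling. Of 47 hypoxia and glycolysis genes 11 were higher and 7 lower, against 3 and 3 with median scaling, and SLC2A3, the glucose transporter GLUT3, had 1.85. Antigen presentation genes split, with 4 of 24 higher, HLA-DMB at 1.24 among them, and 5 lower, against 2 and 5 with median scaling. Of 51 ATF4 and unfolded protein response genes 10 were higher and 7 lower, against 1 and 6 with median scaling. Of 33 WNT target and stem cell genes 6 were higher and 7 lower, against 1 and 6. Lysosome and autophagy genes had 8 of 46 higher and 2 lower, against 1 and 1 with median scaling.

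Apoptosis regulators had 1 of 34 higher and 5 lower. Of 36 cholesterol and fatty acid synthesis genes 2 were higher and 6 lower, against 0 and 5 with median scaling, with ACACA and FASN, which start and carry out fatty acid synthesis, at −0.81 and −0.71. Of 67 cytosolic ribosomal protein genes 9 were lower (13.4%) and of 63 oxidative phosphorylation genes 7 (11.1%), near the all-gene share of 11.1%. None was higher in either list. With median scaling the counts of lower genes were 1 and 3, and with cyclic loess 2 and 4. Of 38 acetyltransferase and methyltransferase genes 2 were higher and 2 lower, against 1 and 2 with median scaling.

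The drugs inhibit DNA methyltransferases and histone deacetylases. Of 32 tested DNA methylation and histone deacetylation enzymes 1 was higher and 4 lower, against 0 and 2 with median scaling. DNMT1, the maintenance methyltransferase, had an interaction of −0.26 ± 0.13 (SE, adjusted p = 0.17), past the threshold with the chip as a block or with array weights, and DNMT3B, a de novo methyltransferase, 0.09 ± 0.13 (adjusted p = 0.67). HDAC1, HDAC2 and HDAC3, class I deacetylases, had 0.13, −0.19 and −0.07, none past the threshold. UHRF1, which guides DNMT1 to replicated DNA, was lower at −0.79 ± 0.14 (SE, adjusted p = 0.00167), and HDAC4, a class II deacetylase, at −0.81 ± 0.13. CDKN1A, the cell cycle inhibitor p21, had −0.45 ± 0.10 (adjusted p = 0.00811), a call that was lost when the probes of the gene were averaged. MYC, a transcription factor of growth, had −0.51 ± 0.11 (adjusted p = 0.00625), and CDKN2A −0.40 ± 0.24 (adjusted p = 0.26).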

How the data were processed

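Total RNA of 12 SW48 samples was hybridised to Illumina HumanWG-6 v3 arrays. The authors deposited 1 intensity per probe and array, not normalized, with a detection p-value, per the file headers. The submitters' processing notes name GenomeStudio and lumi 2.6.0. A second table deposited by the authors holds processed values on a log2 scale, used as an alternative. Groups came from sample titles. Intensities were corrected with limma 3.58.1 (R 4.3.3, normexp from detection p, offset 16), quantile-normalized and log2-transformed. Probes with detection p under 0.01 on at least 3 arrays were kept, and the probe with the highest mean stood for a gene. A fit of 4 group means gave the interaction, with moderated two-sided tests and Benjamini-Hochberg adjustment over 9484 genes. The procedure was tested on simulated data. A gene not detected in a group has only a bound, "at least N-fold", taken from the lowest detected signal. Of 48801 probes, 27577 had 1 gene symbol, 13 several genes and 21211 none here. Precision is limited by 3 arrays per group.

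Named genes are the 12 largest each way, the 10 largest each way among genes detected on all arrays, up to 3 called members per list and preset genes. Apart from preset genes, a named gene had to be past the threshold with the same sign in all 3 same-numbered differences. The members and the lists were chosen with earlier results of these data known. Alternatives covered scaling, background, filters, chip, replicate block, probe choice and leaving out each array. Same-numbered arrays deviated together with correlations from −0.291 to 0.427 over 18 pairs, 11 of them over 0.1. Those on the same chip ran from −0.0785 to 0.427, and the 4 pairs on different chips from −0.291 to −0.025. The main fit did not pair the arrays by number, and the replicate block was run as an alternative.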

Additional observations from a re-analysis of the deposited data

Results flagged for a closer look

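Probes to which the annotation gives no single gene were left out of the gene comparison. Among 2221 such probes that passed the same filter, the interaction was higher for 256 (11.5%) and lower for 202 (9.1%), against 11.6% and 11.1% of the tested genes. They were singled out because they lie outside the genes reported above, and no gene is named for them.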

How the results depend on the processing

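Of the 112 named genes past the threshold, 56 kept their call and direction under every alternative run for them. With median scaling 321 genes were higher and 641 lower, combined minus azacytidine had 598 higher and TSA minus control 0 lower. With cyclic loess 664 genes were lower. Chip 1 alone gave 378 higher and 141 lower and chip 2 alone 418 and 139, with fewer arrays by construction and with 34 and 36 named genes losing the call, and the interaction differed between chips for 0 genes (limma, 474 at an unadjusted p under 0.05). Leaving out 1 array gave 916 to 1108 higher and 780 to 1159 lower for the interaction, 1237 to 1553 and 1433 to 1973 for combined minus azacytidine, and 0 to 18 and 0 to 2 for TSA minus control. TSA minus control had 0 higher and 0 lower without TSA replicate 2, and 5, 5 and 4 higher without TSA replicate 1, TSA replicate 3 and control replicate 1. With the replicate block the interaction had 1251 higher and 1338 lower, and TSA minus control 1 lower; 7 of 12 arrays correlated best with their own number. With the chip as a block there were 1393 and 1572, and with array weights 1405 and 1576. STAB1 turned to 0.027 (adjusted p = 0.931) with undetected values at the floor. Uncalled genes that changed sign were DNMT3B (−0.19 with median scaling, −0.019 on chip 1), HDAC1 (−0.14 with median scaling) and HDAC3 (0.11 on chip 1, −0.13 to 0.011 leaving out 1 array, 0.011 being without azacytidine replicate 3). Of the named genes, 8 lost the call without 1 array, and none of them is described above. The causes were not tested. Low signals are limited by background: the interaction of genes near detection is smaller without background correction, as for PMEL (2.37).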
